A study of Caenorhabditis elegans with 4 samples.

Results

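Peaks of the FLAG-tagged worm protein MSTR-1 that lay over 2 or more genes at once are described here. A peak is a stretch of the genome in which crosslinked RNA reads piled up after immunoprecipitation. The members were chosen by position alone. A peak of the authors' MSTR-1 peak list was taken if at least 1 bp of it lay inside each of 2 or more gene spans of the WBcel235 gene table, on either strand, with piRNA genes left out. Of 2664 peaks, 228 met this rule (8.56%), 2404 lay over exactly 1 gene and 32 over none.

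The study used eCLIP, a sequencing assay of RNA that is crosslinked to a protein by ultraviolet light and comes down with it. Whole young adult Caenorhabditis elegans were kept at 25 °C on standard plates and irradiated at 1.2 mJ/cm2. There were 2 CLIP libraries from tagged worms, which carry the allele on49 (MSTR-1::3xFLAG) of the chromosome I gene F22D6.2. Untagged N2 worms gave 1 CLIP library, and the tagged worms gave 1 input library of matched fragment size. The tag sits on the F22D6.2 gene itself, and each library was made from whole worm lysate, so tissues cannot be told apart and fewer cells of a type cannot be told from less RNA per cell. The design text calls the CLIP libraries biological replicates, while the input and the N2 library have no replicate. The peak table does not say which CLIP column is replicate 1 or 2, and the columns are called library A and library B.

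In the compact worm genome, a gene often lies within an intron of a longer gene, on the same strand or on the other. Small nucleolar RNAs (snoRNAs), which guide chemical modification of other RNAs, are commonly cut from introns of host genes, and many of those hosts encode ribosomal proteins. A read from a place where genes share bases can therefore come from either gene. The gene table used here carries neither the strand nor the exons of a gene, so a peak over a host and an inner gene could not be assigned to one of them by strand or by exon. No sequence of these regions was at hand, and none is printed.

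Within the 228 peaks library A had 2046552 reads, library B 3006233 and the input 244679. Peaks over rRNA genes, 6 in number, held 95.1%, 95.9% and 71.2% of these reads, in the same order. The other 222 peaks held 100987, 124616 and 70490 reads. Reads are given below as recovered whole reads. A fold is the mean of both CLIP libraries over the input after division by the authors' size factors, which were 0.921 for library A, 1.53 for library B and 0.693 for the input. Its 95% interval is an exact Poisson interval of the input reads alone and covers counting error only. Peaks over exactly 1 gene covered 69 cuticle collagen genes of the epidermis, 25 muscle genes, 23 major sperm protein genes and 4 vitellogenin genes of the intestine. Across the members, which are not independent replicates and share these libraries, Pearson's r between libraries A and B was 0.95 on the log2(scaled reads + 1) scale, and 0.92 without the rRNA peaks.

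The 228 peaks touched 379 genes, of which 220 encode proteins. A further 68 were annotated as noncoding RNAs (ncRNA), 43 as tRNAs, 30 as snoRNAs and 6 as spliceosomal snRNAs. There were 3 rRNA genes, 3 antisense RNAs and 1 microRNA. Exactly 2 genes were met by 202 peaks, 3 genes by 25 and 5 genes by 1. The peaks were spread over chromosome I (44), chromosome II (38), chromosome III (33), chromosome IV (48), chromosome V (31) and chromosome X (34). In 122 of them both genes encoded proteins. Peaks over noncoding genes often met the rule. Other noncoding RNA genes were met by 71 members and 7 single-gene peaks. Of all 33 MSTR-1 peaks over a snoRNA gene, 30 also touched another gene, as did 39 of 52 over a tRNA gene, 6 of 7 over an snRNA gene and the lone peak over a microRNA. Of 2546 peaks over a protein-coding gene, 197 (7.74%) did.

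The members were called higher more often than peaks of the whole table, while the number above the input took a like share. Calls in the lower direction were few under the authors' factors, and their share beside that of all peaks depended on the fit. The log2 change was above 0 at 152 of the 228 and at 1776 of all 2664 peaks. With limma on log2(scaled reads + 1), adjusted over all 2664 peaks at 0.05, 58 of the 228 were called higher in CLIP (25.4%) and 6 lower (2.63%), and 164 were not called. With a single input library, its spread was taken to be that of the CLIP libraries and was not measured. Over all peaks 12.7% were called higher and 1.76% lower. Both CLIP libraries lay above the input at 132 of the 228 and both below it at 56, beside 53% and 22% of all peaks. The median log2 change was 0.51 for the members and 0.45 for all peaks. The members were also deeper. Their median reads were 40 for library A, 56.5 for library B and 11 for the input, against 15, 24 and 8 over all peaks. The part of depth in the larger share of calls was not tested. Directions in this text rest on the authors' size factors. When the columns were scaled by their own totals instead, the median of all peaks moved to -1.48 and that of the members to -1.48, and 17 members were called higher and 127 lower, beside 2.14% and 51.1% of all peaks. edgeR on the recovered reads with the authors' factors called 52 members higher and 3 lower, beside 10.5% and 1.24% of all peaks. With its own TMM factors it called 31 higher and 23 lower, beside 4.43% and 5.63%, and DESeq2 called 28 and 16, beside 3.57% and 3.49%.

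Arrangements were told apart by the spans of the genes, and their medians differed. In 81 peaks a small RNA gene (snoRNA, tRNA, snRNA, microRNA or another ncRNA of at most 200 nt) lay inside a host gene. Of these 13 were called higher and 3 lower, with a median log2 change of 0.22. In 105 peaks a longer gene was nested in a host. There 36 were called higher and 0 lower, and the median was 1.08. Spans overlapped only in part at 37 peaks, with 7 called higher, 3 lower and a median of -0.08. At 5 peaks the genes were neighbours that share no base, and 2 of them were called higher. Set against the median of all peaks in the same fit, the nested peaks lay 0.63 higher with limma on the authors' size factors. The edgeR fit with TMM factors put them 0.72 higher and limma with column totals 0.63 higher. In the same order, those over a small RNA in a host lay 0.23 lower, 0.26 lower and 0.29 lower. Those over partly overlapping genes lay 0.53 lower, 0.59 lower and 0.55 lower. For the nested peaks, edgeR with the authors' factors also gave 0.72, and limma with TMM factors 0.64. The sizes depended on the CLIP library used. For the nested peaks, library A alone gave a median 0.72 above that of all peaks and library B alone 0.24 above. For a small RNA in a host they gave 0.13 lower and 0.40 lower, and for partly overlapping genes 0.31 lower and 0.84 lower, in the same order.

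**Figure D1:**
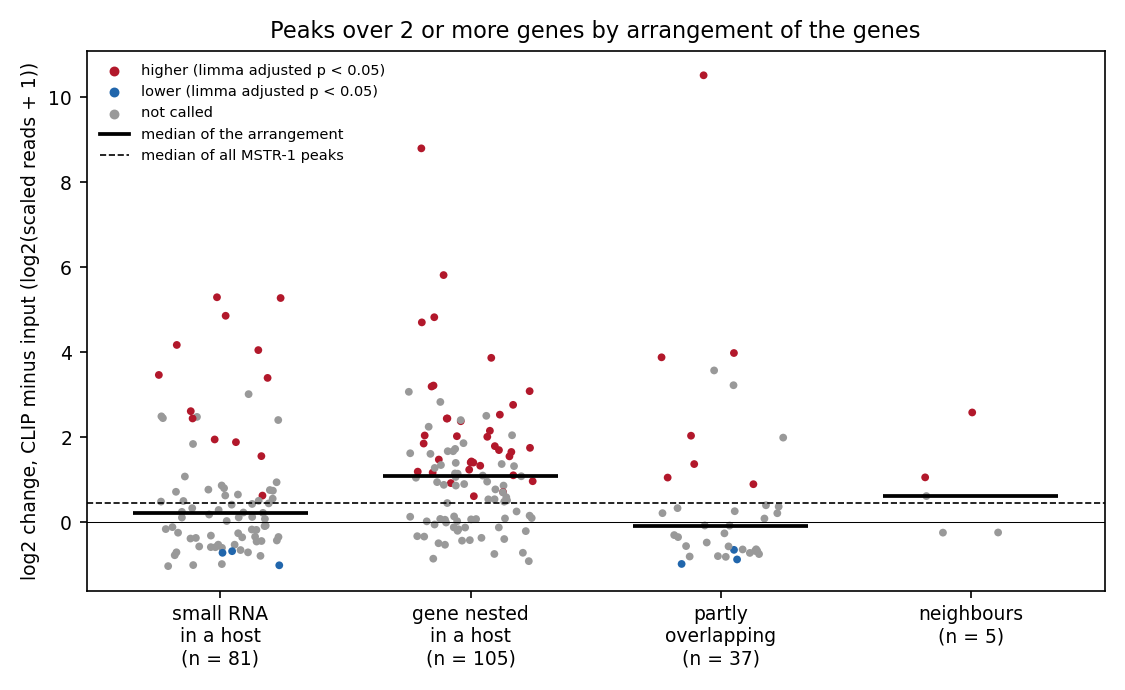
Each point is a peak over 2 or more genes, placed by the arrangement of its genes (x axis) and its log2 change of CLIP minus input on the log2(scaled reads + 1) scale (y axis). Black bars are the median of each arrangement, and the dashed line is the median of all MSTR-1 peaks at 0.45. The 105 nested peaks have a median of 1.08 and no peak called lower.

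Cuticle collagens were inside at 49 of the 105 nested peaks. Cuticle collagens are secreted by the epidermis and form the worm's outer layer. The 49 peaks lay over 21 collagen genes within 17 other genes, none of them a collagen. CLIP was called higher at 27 of the 49 and lower at 0, with a median log2 change of 1.17. The edgeR fit with TMM factors called 11 higher and 4 lower, and limma with column totals 4 higher and 26 lower. The median stayed 0.70 and 0.63 above that of all peaks in the same fit. Library A alone put that median 0.996 above all peaks and library B alone 0.26 above. Of the 49, 47 lay wholly within the collagen's span. Each of the 49 had to touch the collagen to be a member, so their place in the host follows largely from the rule. The collagens fill 5.14% to 45.8% of their host (median 14.7%). Of the 17 hosts, 16 had no peak of their own, meaning a peak over that gene alone. Of 181 collagen peaks that touch no other gene, 95 were called higher and 3 lower, with a median of 1.27.

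The most crowded host was dhc-4, a dynein heavy chain gene of 21973 nt on chromosome III, from 10969944 to 10991916. It held 10 peaks, all over col-92, col-93 or col-94 (14.7% of its span), and none elsewhere. The 3 peaks of col-92 were all called higher. The one from 10982663 to 10982914 had 145 and 181 reads in libraries A and B, against 1 in the input. Its fold was 95.7, with an interval of 17.2 to 3779.7 that the single input read leaves wide, and the log2 change was 5.82 ± 0.41 (SE; limma adjusted p = 2.05e-41). The adjacent peak from 10982431 to 10982653 had 114 and 165 CLIP reads, against 8 in the input (fold 10.05, 5.10 to 23.3). The peak from 10982150 to 10982362 had 62 and 89 CLIP reads and 1 input read. Both CLIP libraries were far above the input at each of them. The col-94 gene was covered more deeply and stood little above the input. Its largest peak, from 10987260 to 10987604, had 633 and 981 CLIP reads, against 281 in the input (fold 1.64, 1.46 to 1.85; adjusted p = 0.00729). The other col-94 peaks had folds of 1.07 and 1.44 and were not called. Lying between them, col-93 had folds of 1.37 to 14.1 over its 4 peaks, and 3 were called higher.

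The dph-2 gene on chromosome II (11788 nt) held 7 peaks over col-39, col-80 and bli-1, and none outside them. Its collagens differed from each other. At col-39 the peaks had 99 and 129 and 108 and 122 CLIP reads in libraries A and B, against 29 and 34 in the input, with folds of 2.30 and 2.01, and both were called higher. At col-80 the folds were 0.71, 1.06 and 0.81, and none was called. The first of these had 183 and 294 CLIP reads, against 191 in the input, and both scaled CLIP values lay below the input. At bli-1, a collagen of the struts between cuticle layers, reads were few, with 10 and 5 in CLIP, against 0 in the input, at one peak and 12 and 15, against 4, at the other.

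**Figure D2:**
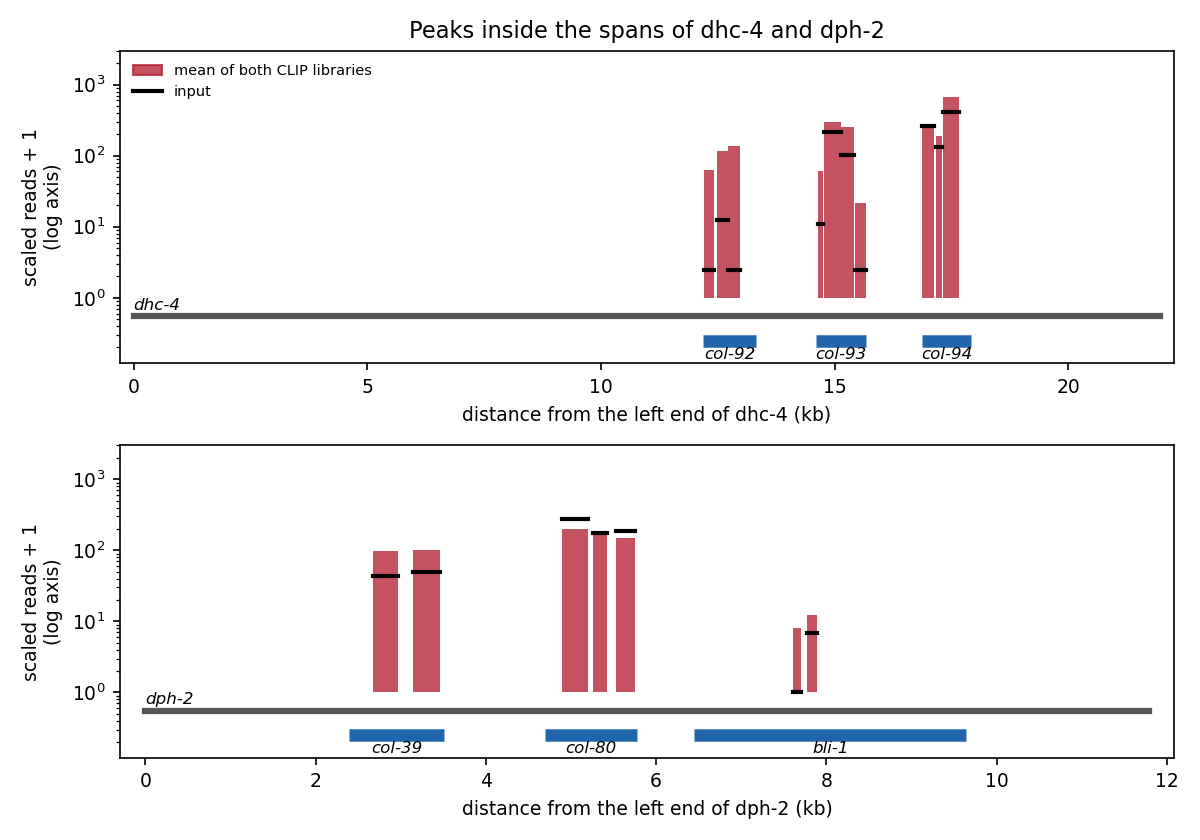
Peaks within the dhc-4 and dph-2 spans, by distance from the left end of each gene in kb (x axis). Red bars give the mean scaled reads + 1 of both CLIP libraries on a log axis, black bars the input, the grey line the host and blue boxes the nested collagens. All 10 and 7 peaks sit over the collagens, and col-92 has the lowest input of the dhc-4 collagens.

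Summed over its peaks, each nested collagen could be set against the others. The summed fold was above 1 for 17 of 21 collagens and above 2 for 13, with a median of 2.14. Library A exceeded the input for 18 of them and library B for 16. The highest was col-92, with 349 and 285 scaled reads in libraries A and B, against 14.4 in the input (fold 21.96). Next came col-130, nested in the UDP-glucuronosyltransferase gene ugt-65, with 186 and 165 scaled CLIP reads, against 27.4 in the input (fold 6.40). All 3 of its peaks were called higher. The fold of 5.50 at col-41 rests on 14 and 1 CLIP reads and 1 input read, and that peak was not called. For col-138 in C52D10.3 the scaled reads were 376 and 317 in CLIP, against 99.5 in the input (fold 3.48). For dpy-4, a body-shape collagen nested in the atlastin gene atln-2, they were 479 and 369, against 140 (fold 3.03), and 3 of its 4 peaks were called higher.

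The collagens in between kept both CLIP libraries above the input. At col-91, in the Niemann-Pick homologue ncr-2, scaled reads were 98.8 and 64.9 in CLIP, against 15.9 in the input (fold 5.16), and both of its peaks were called higher. At col-107 in C34H4.5 they were 312 and 187, against 96.6 (fold 2.58), with 3 of 3 peaks called. At col-14 in C46A5.4 they were 294 and 219, against 98.1 (fold 2.62), with 2 of 3 called. The single peak of col-48 in mek-2, a MAP kinase kinase gene, had 27 and 60 CLIP reads, against 7 in the input (fold 3.40), and was called higher. The blister gene bli-2, in the centriole kinase gene zyg-1, had 39 and 43, against 12 (fold 2.04), and lon-3, a body-length collagen in ogdh-2, had 20 and 29 over 2 peaks, against 7 (fold 2.02). Neither of these was called.

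At the other end were collagens with many input reads. At col-19, an adult collagen in hrg-11.4, scaled reads were 692 and 689 in CLIP, against 635 in the input (fold 1.09). At col-124, in the NAD synthetase gene qns-1, they were 955 and 771, against 881 (fold 0.98), so the input fell between the CLIP libraries. The lowest fold was that of col-101 in drl-1, with 109 and 87.8 scaled CLIP reads, against 163 in the input (fold 0.60), and neither of its peaks was called. Nested collagens thus ranged over folds of 0.60 to 21.96 with these libraries. Of the 49 peaks, 8 met a peak of the untagged N2 library, at col-91, col-94, col-14, col-138, dpy-4 and lon-3.

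**Figure D3:**
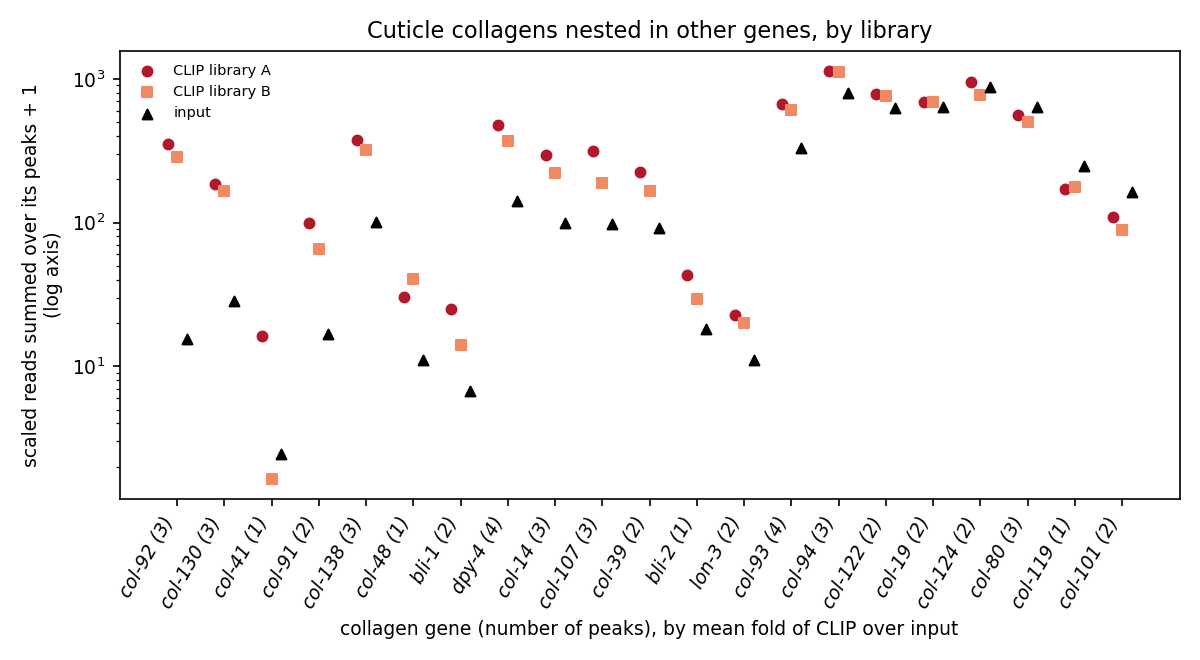
Scaled reads summed over the peaks of each of the 21 nested collagens, plus 1, on a log axis (y axis), with collagens ordered by mean fold of CLIP over input (x axis; number of peaks in parentheses). Red circles are CLIP library A, orange squares library B and black triangles the input. Both CLIP libraries are above the input from col-92 (fold 21.96) to col-19 (1.09), apart from col-41, where library B had 1 read.

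Of the other nested genes, covered by 56 peaks, 9 peaks were called higher and 0 lower, with a median log2 change of 0.99. Their reads were few, the median being 13.5 for library A, 19.5 for library B and 4 for the input. The following were picked after their values were seen. The ncRNA gene lfor-1 in the receptor gene sre-13 had 95 and 142 CLIP reads, against 4 in the input (fold 17.003, 6.64 to 62.4; log2 change 3.87 ± 0.39; adjusted p = 1.61e-20). Its counterpart lfor-2, nested in atgp-2, had 185 and 312 CLIP reads, against 153 in the input, and was not called (fold 0.92). F47G4.14, nested in the S-adenosylmethionine decarboxylase gene smd-1, filled 16.2% of a peak with 64 and 113 CLIP reads, against 9 in the input (fold 5.53). At srlf-1, in the glutamate receptor gene glr-4, the larger peak had 153 and 243 CLIP reads, against 38 in the input (fold 2.97). H40L08.7 in H40L08.2 had 21 and 50 CLIP reads and no input read, so CLIP was at least 6.42-fold higher, taking 3 reads as the floor of the input. In each of these 5, apart from lfor-2, both CLIP libraries lay above the input.

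In some other hosts, most peaks over nested genes were not called. In herc-1 (43235 nt), an E3 ligase gene with no peak of its own, 3 peaks lay over Y48G8AL.12 and Y48G8AL.13. The largest had 111 and 177 CLIP reads, against 29 in the input, and was called higher (fold 2.83, 1.97 to 4.22). The others had folds of 1.43 and 1.27. ZC8.6 (25084 nt) held 3 peaks over lfi-1 with folds of 0.77 to 2.47, none of them called. The actin-depolymerising factor gene unc-60 was the host of F53E2.2, and their 3 shared peaks had folds of 0.74 to 0.88. Collagen genes could also be hosts. The cuticle collagen gene col-71 held the ncRNA Y49F6B.15, and their peak had 85 and 192 CLIP reads, against 18 in the input (fold 4.20, 2.66 to 7.09). The type IV collagen gene let-2, of the basement membrane, held F01G12.14, and that peak had 32 and 40, against 21, and was not called (fold 1.01).

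Major sperm proteins, which build the cytoskeleton of the crawling sperm, were nested in 3 hosts at 5 peaks, of which 1 was called higher. At msp-31, nested in aagr-2, one peak had 35 and 34 CLIP reads, against 4 in the input (fold 5.22, 2.04 to 19.2), and the other had 18 and 23, against 13 (fold 0.92). Of 6 member peaks over the muscle genes act-1, act-3, mlc-2, tni-3 and unc-22, 2 were called higher, both in act-3. Antisense RNA genes lay within other muscle-related hosts. The calcium pump gene sca-1 shared 3 peaks with the antisense RNA K11D9.5, and the kettin gene ketn-1 shared 1 with F54E2.8. Their folds were 0.93 to 2.22 and none was called. At the largest, sca-1 had 21 and 47 CLIP reads, against 20 in the input.

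Of 108 protein-coding hosts, 79 had no peak of their own, and these held 123 member peaks. The other 29 hosts, with own peaks, held 38. Most hosts of nested genes had no own peak (45 of 58). Among the 36 nested peaks called higher, 33 lay in hosts without an own peak. Member peaks of protein-coding hosts, called or not, also lay mostly in hosts without an own peak (123, against 38). The like share over nested peaks alone was not counted, so the 33 are not set apart from it.

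SnoRNA peaks split by the kind of host. When a ribosomal protein gene was in the peak too (12 peaks), none was called higher and 1 was called lower, with a median log2 change of -0.33. When no such gene was there (18 peaks), 5 were called higher and none lower, with a median of 0.40. The median of the first lay 0.78 below that of all peaks and that of the second 0.06 below it. Library A alone put the peaks without a ribosomal protein gene 0.70 above all peaks, and library B alone put them 0.35 below, so their place rests on which library is used. Of 20 members over a ribosomal protein gene, 0 were called higher and 4 lower (median -0.37), and of 128 ribosomal protein peaks that touch no other gene, 3 were called higher and 24 lower (median -0.37). The median of the 20 lay 0.83 to 0.97 below that of all peaks under limma with the authors' factors, edgeR with TMM factors and limma with column totals.

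The ribosomal protein hosts gave wide, deep peaks. At rpl-4 with the snoRNA B0041.9, library A had 317 reads and library B 500, against 316 in the input (fold 0.74). The snoRNA filled 12.1% of that peak. At rpl-26 with F28C6.11 there were 251 and 322 CLIP reads, against 187 in the input (fold 0.90). Separate peaks met the snoRNA genes of rpl-7A. The wide one over Y24D9A.10 had 253 and 453 CLIP reads, against 258 in the input (fold 0.77), and the one filled to 97.0% by Y24D9A.9 had 128 and 236, against 87 (fold 1.17). Neither was called. The peak of rps-27A with H06I04.9 was the one called lower, with 130 and 153 CLIP reads, against 136 in the input (fold 0.62; adjusted p = 0.0498). It stands at the threshold. The only microRNA, mir-354, lies in the ribosomal protein gene rps-20 and filled 28.4% of its peak, with 258 and 283 CLIP reads, against 204 in the input (fold 0.79, not called). The remaining snoRNA peaks of ribosomal protein genes, over rpl-15, rps-29, rps-12, rpl-27A and rpl-24, had folds of 0.66 to 0.94 and none was called.

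Outside the ribosomal protein hosts, 5 snoRNA peaks were called higher. The deepest was that of gpa-1, a G protein alpha subunit gene, with the ncRNA T19C4.17 and the snoRNA T19C4.12, which fills 90.4% of the peak. It had 253 and 391 CLIP reads, against 16 in the input (fold 11.5, 7.08 to 20.1; log2 change 3.47 ± 0.28; adjusted p = 1.37e-32). C16D9.11 in rol-3, a receptor kinase gene, had 24 and 91 CLIP reads, against 1 in the input (fold 29.7, 5.33 to 1173). C41C4.11 in C41C4.15 had 50 and 201, against 9 (fold 7.16). At C05H8.3 in ckk-1, a calmodulin-dependent kinase kinase gene, the values were 14 and 35, against 3 (fold 4.41). The last was F01D5.12, which shares its peak with F01D5.10 and F01D5.14 and had 41 and 167 CLIP reads, against 1 in the input (fold 53.4). Library B held the higher scaled value in 4 of the 5, gpa-1 being the exception, and both CLIP libraries were above the input in all of them.

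SnoRNA hosts outside this group could also be deep and uncalled. The pcyt-2.1 peak was filled to 93.0% by Y37E3.20 and had 343 and 724 CLIP reads, against 392 in the input (fold 0.75). The heat shock gene hsp-1 with F26D10.24 had 27 and 51, against 38 (fold 0.57), and the elongation factor gene eef-1G with F17C11.14 had 66 and 84, against 46 (fold 0.95). The ribosome-associated scaffold gene rack-1 is no host but a neighbour of the snoRNA gene K04D7.17, 4 nt away. Their peak, of which K04D7.17 held 4.61%, had 157 and 307 CLIP reads, against 152 in the input (fold 0.85). The other snoRNA peaks, over mix-1, twk-5, pdl-1, Y39G10AR.24, unc-70, unc-41, ncx-7, C30E1.9 and spe-12, had 35 or fewer reads in the CLIP libraries together, and none was called.

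**Figure D4:**
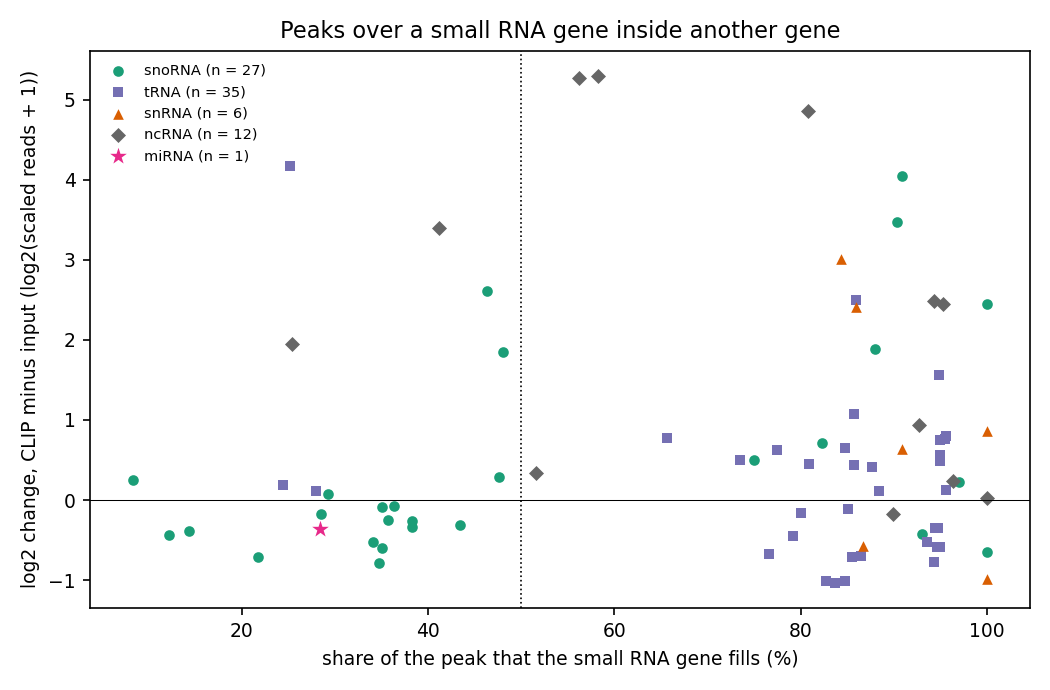
The 81 peaks over a small RNA gene inside a host, by the share of the peak that the small RNA gene fills in % (x axis) and the log2 change of CLIP minus input (y axis). Symbols mark the type of the inner gene, and the dotted line is at 50%. The 24 peaks filled less than 50% have a median of -0.13 and the 57 others a median of 0.45.

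How much of the peak the small RNA filled went with its type. tRNA genes filled a median of 85.7% of their peaks, snRNA genes 88.8% and snoRNA genes 38.3%. Of 35 peaks with a tRNA as the inner gene, 32 were filled at least 50%, against 9 of 27 with a snoRNA. Both ends of the peak lay within 10 nt of the small RNA's ends at 18 of the 81 peaks, 11 of them at tRNAs. Over all 81, peaks filled at least 50% had a median log2 change of 0.45 and those filled less a median of -0.13, with 9 of 57 and 4 of 24 called higher. This split was set after the data were seen and has no test.

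Among tRNA peaks, 39 were members, 5 of them called higher (12.8%) and 2 lower (5.13%), with a median log2 change of 0.21. Over all peaks 12.7% were called higher and 1.76% lower. Of 13 tRNA peaks that touch no other gene, 4 were called higher and 0 lower, with a median of 0.15. In 33 of the 39 the peak also touched an ncRNA entry, which did not always enclose the tRNA. The 4 deepest had many reads in the input as well. M01E10.t1 had 27296 and 31259 CLIP reads, against 34416 in the input, and was called lower (fold 0.50; log2 change -1.01 ± 0.24; adjusted p = 0.000375). F52E10.t5 had 21435 and 24448, against 9828 (fold 1.39, not called), and C39D10.t2 had 17952 and 20984, against 7993 (fold 1.44, not called). M02F4.t2 had 15164 and 18079, against 6260, and was called higher (fold 1.57; adjusted p = 0.0250). The peak of K01A12.3 holds the tRNA genes K01A12.t5 and K01A12.t4. It had 92 and 224 CLIP reads, against 4 in the input (fold 21.4, 8.35 to 78.5). Y17G9A.t1, which shares a peak with the ncRNA Y17G9A.87 and the receptor gene str-173, had 91 and 107, against 3 (fold 19.5, 6.68 to 94.7). In nhr-41, a nuclear receptor gene, Y104H12A.t1 had 173 and 255, against 197, and was called lower (fold 0.62; adjusted p = 0.0411). The widest gathering of genes, cbl-1 with C12C8.5, C12C8.7, C12C8.t4 and C12C8.t3, had 236 and 360 CLIP reads, against 150 in the input (fold 1.14, not called).

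Spliceosomal snRNA genes lay in hosts at 6 peaks, none of them called. The deepest, F15H9.5 in sri-17, had 88 and 99 CLIP reads, against 35 in the input (fold 1.59). The other 5 had 19 or fewer reads in the CLIP libraries together, and 2 of them had no input read.

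Peaks over other ncRNAs of at most 200 nt had some of the highest folds. The actin gene act-3 on chromosome V held T04C12.17 and T04C12.26. The peak over T04C12.17, from 11072986 to 11073277, had 146 and 221 CLIP reads, against 2 in the input (fold 52.6, 14.6 to 434; log2 change 5.29 ± 0.38; adjusted p = 8.83e-41). The one over T04C12.26 had 81 and 127, against 5 (fold 11.9). High values were not confined to these ncRNAs. A peak over act-3 alone, from 11072405 to 11072593, had 62 and 111, against 0 (log2 change 6.15). At act-1, another actin gene nearby, the peak with T04C12.30 had 393 and 626, against 230, and was not called (fold 1.26). The act-3 peaks had far fewer input reads than that of act-1. The histone gene his-16 with ZK131.14 had 34 and 59 CLIP reads and no input read, which makes CLIP at least 8.73-fold higher. F26H11.10, which shares a peak with F26H11.4 and F26H11.9, had 113 and 356, against 21 (fold 5.88).

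The rRNA genes on chromosome I were covered by 6 members, since ncRNA entries overlap them. All 6 met an N2 peak, and N2 folds are over the same input library. The peak over rrn-3.56, an rRNA pseudogene, and F31C3.16 had 251592 and 322327 CLIP reads, against 113 in the input (fold 1486). The N2 library had 97332 reads there, a fold of 2212. The small-subunit gene rrn-1.1 with F31C3.15 had 74838 and 112692, against 120 (fold 448), and N2 gave 801. For rrn-1.2 with F31C3.13 the values were 359810 and 604552, against 70612 (fold 3.86), and 6.66 for N2. The large-subunit gene rrn-3.1 with F31C3.14 had 3 peaks. The deepest had 1133545 and 1647258, against 54201 (fold 14.8), with 23.6 for N2. Copies of rRNA genes are near-identical, so how reads were split among rrn-1.1, rrn-1.2 and their neighbours is uncertain.

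Where gene spans overlap only in part, some peaks sat on a single gene and only touched the other, while others lay wholly or mostly within both. At the 37 such peaks, the gene holding more of the peak held a median of 100% of it and the other 33.7%. At 16 the second gene held under 25%. Of the 6 members called lower, 3 were of this kind and lay over a ribosomal protein gene whose end meets another gene. They were rps-16 with T01C3.11 (124 and 172 CLIP reads, against 169 in the input; fold 0.51), rpl-14 with nssp-7 (95 and 149, against 128; fold 0.54) and rplp-1 with arl-13 (253 and 320, against 261; fold 0.64). Both CLIP libraries were below the input in all 3. Only 4 nt of the rpl-14 peak lay in nssp-7. The elongation factor gene eef-1A.1 with F31E3.12 had 282 and 454, against 310 (fold 0.68), and was not called (adjusted p = 0.0715).

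Partly overlapping genes called higher included lin-3, which encodes an epidermal growth factor-like ligand, with ttr-16, at 66 and 136 CLIP reads, against 21 in the input (fold 2.65). The calponin-like gene clik-1 with T25F10.1 had 114 and 146, against 36 (fold 2.11). The collagen genes col-159 and col-160 overlap each other, and their 3 shared peaks had folds of 0.84 to 1.20, none of them called. Among true neighbours, gpd-2, a glyceraldehyde-3-phosphate dehydrogenase gene, and mai-1, which are known to be transcribed in one operon, lie 2 nt apart in the table. Their peak had 80 and 187 CLIP reads, against 34 in the input (fold 2.13, 1.53 to 3.08; adjusted p = 0.00676). The tRNA genes C12C8.t5 and C12C8.t2, 141 nt apart, shared a peak with 35 and 63, against 4 (fold 6.87). The gap at snfc-5 and rnp-4 was 0 nt and their peak had 9 and 11, against 7.

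At the edge of the 1 bp rule, 6 members shared 10 nt or less with their second gene, and 7 peaks over 1 gene lay within 10 nt of another. Just inside were rpl-14 with nssp-7 and col-8 with lgc-38, each with 4 nt in the second gene, and F58D5.t1 with F58D5.2, with 5 nt. The col-8 peak had 71 and 71 CLIP reads, against 58 in the input, and that of F58D5.t1 8 and 9, against 3. Just outside was the peak over act-3 alone, which lies 3 nt from T04C12.26, with 62 and 111 CLIP reads, against 0 in the input. Mitochondrial rRNA peaks lay 1 nt and 4 nt from a tRNA gene and had 15 and 11 and 23 and 28 CLIP reads, against 0 and 1 in the input.

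The strand listed for a peak could be set against the strand listed for peaks over the same gene alone. Each of the 1347 genes with own peaks had them on 1 listed strand, and 166 of 167 such genes with own peaks in both tables had the same one in the N2 table. Of the members, 64 held at least 1 gene with an own peak. The listed strand was the same for 57 of them and the opposite for 7. Of these 7, the eps-8 peak is the deepest. eps-8 with Y57G11C.t1 had 231 and 322 CLIP reads, against 118 in the input (fold 1.36). The tRNA gene filled 85.7% of it. The col-41 peak in ucr-2.2 was another, and so were those of Y47G6A.15 in spg-7, dbd-8 in rict-1, T12D8.9 in hip-1 and pde-6 beside zfr-1. None of the 7 was called. All 4 peaks over both an antisense RNA gene and a protein-coding gene were on the listed strand of the protein-coding gene's own peaks. Among genes with 2 or more member peaks, 61 of 64 had them on 1 listed strand.

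Peaks over 2 or more genes also met the untagged library. Of the 228, 36 shared at least 1 bp with a peak of the N2 list on the same listed strand (15.8%, exact Clopper-Pearson 95% interval 11.3% to 21.2%), beside 8.75% of all MSTR-1 peaks. Of the 58 called higher, 22 did (37.9%, 25.5% to 51.6%) and 36 did not, beside 107 of all 337 peaks called higher (31.8%, 26.8% to 37.0%). The 58 are part of the 337, and peaks share the same libraries and are not independent replicates. These intervals therefore only describe each share, and the difference between shares was not tested. The N2 list was called from 1 library in a table of its own, with its own size factors, so folds of the 2 tables are set side by side with no test. Input reads were present in both tables at 37 pairs of a member and an N2 peak. Over these the MSTR-1 fold had a median of 2.75 and the N2 fold a median of 3.92, and the N2 fold was the higher one at 23. At act-3 with T04C12.17 MSTR-1 CLIP had a fold of 52.6 and N2 CLIP one of 44.4, from 31 reads, against 2 in the input. At gpa-1 with T19C4.12 they were 11.5 and 7.34, and at Y17G9A.t1 19.5 and 12.4. N2 exceeded MSTR-1 at K01A12.3 (21.4 and 35.8) and at col-71 with Y49F6B.15 (4.20 and 7.48). Some pairs shared only a small part of their spans, so their folds are of largely different stretches. At gpd-2 with mai-1 the MSTR-1 peak (3114506 to 3114722) had 2.13 and the N2 peak (3114457 to 3114525) 6.30. For the myosin light chain gene mlc-2 with C36E6.2, the MSTR-1 peak (17455852 to 17456135) had 1.31, with 69 reads in the input. The N2 peak there (17456120 to 17456279) had 17.2, from 42 N2 reads, against 7 in the input. The peaks of col-92, lfor-1, rol-3, C41C4.15 and his-16 met no N2 peak.

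**Figure D5:**
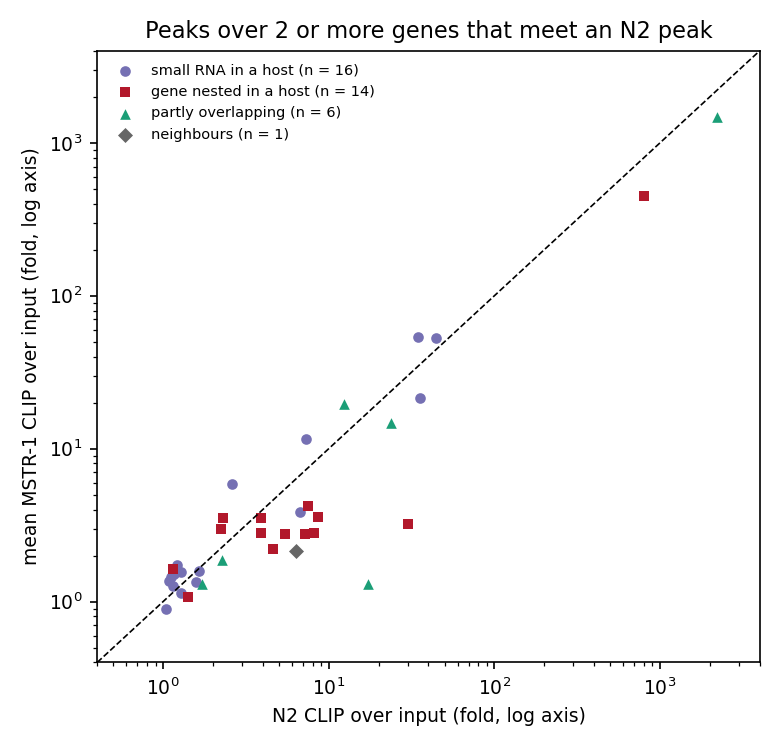
Fold of CLIP over input for MSTR-1 (y axis, mean of both libraries) and for N2 (x axis, 1 library) at the 37 pairs of a peak over 2 or more genes and an N2 peak with input reads in both, on log axes. Symbols mark the arrangement of the genes, and the dashed line marks equal folds. The peaks of a pair share at least 1 bp and can cover partly different stretches. Both folds rest on the same input library. At 23 of the 37 pairs the N2 fold is the higher one.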

How the data were processed

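RNA bound after crosslinking was measured by eCLIP in 4 libraries of whole worms. The tools named per the submitters' processing notes are deepTools, STAR, UMI-tools and cutadapt, without versions. For the peak caller, its settings and the genome build, nothing is given in the sources used here. The authors deposited one peak table for MSTR-1 (2664 peaks) and one for N2 (310 peaks), whose library columns hold a signal, the reads of a peak divided by 1 size factor per library. Multiplied by the factor, 100% of values lay within 0.02 of a whole number of reads. The fold ratio that the authors deposited was not used. The plan named limma on these values, and edgeR on the recovered reads as an alternative.

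Peaks were matched to 31563 entries of the RefSeq gene table of assembly WBcel235, without 15363 piRNA genes. Coordinates are the listed ones. Of 81 peaks over a small RNA in a host, 18 had both ends within 10 nt of that gene's ends, and the count of 228 members stayed the same when starts were read as counted from 0. The table holds no gene strand, so strand classes planned for the pairs were not made, and the listed strand of a peak was compared with that of single-gene peaks instead.

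limma 3.58.1 (R 4.3.3) was fitted to log2(scaled reads + 1) of all 2664 peaks with its variance trend, and p-values were adjusted by Benjamini-Hochberg at 0.05. With the pseudocount of 1, log2 changes of peaks with few reads are understated. Fits were tested on simulated data, where limma made more false calls than edgeR and more than its threshold allows. edgeR 4.0.16 and DESeq2 1.42.0 were run beside it, and the closing section gives their effect. Shares have exact Clopper-Pearson intervals, and folds over 0 input reads are lower bounds against a floor of 3 reads in the input.

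The members and gene lists were chosen with earlier results of these data known, and the rplp- genes joined the ribosomal protein list after the data were seen. Named were the 5 peaks with most CLIP reads per arrangement, the 10 higher and 5 lower ones with the smallest adjusted p, the 5 over most genes, all over a snoRNA, snRNA or microRNA, the 5 with the highest N2 fold and the 5 with the largest difference between CLIP libraries. The nested collagens and their hosts, the peaks of other nested, antisense and strand-opposed genes, and the other partly overlapping genes were named after their values were seen.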

Additional observations from a re-analysis of the deposited data

How the results depend on the processing

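The number of members was 223 with at least 10 bp on each gene, 200 with 50 bp, 173 with at least 50% of the peak on each of 2 genes and 230 with piRNA genes kept. The scaling decided most calls. Of the 228 members, 58 were called higher and 6 lower with the authors' size factors. edgeR on the recovered reads with those factors called 52 and 3, edgeR with TMM factors 31 and 23, DESeq2 28 and 16, and limma with column totals 17 and 127. limma without the variance trend called 0 and 0, with 51 and 0 at an unadjusted p under 0.05. Without the 6 rRNA peaks the counts were 53 and 6, and without the 22 members under 20 reads they were 58 and 6, both chosen after seeing the data. With limma, the members' median of 0.51 became 0.093 with TMM factors, 0.13 with DESeq2's and -1.48 with column totals. It was 0.70 with 50% of the peak on each of 2 genes. Leaving out a CLIP library gave 0.38 to 0.54. The median of all peaks moved with the scaling as well. In these limma fits that of the members lay 0.06 above it with the authors' factors, 0.03 above with TMM factors and 0.00 from it with column totals. With library A alone it lay 0.20 above and with library B alone 0.15 below, so the direction of this difference rests on the library. Of 46 named peaks with recomputed values, 13 that were called in at least 1 of the fits changed direction under column totals, as did F58D5.t1 (-1.18) and col-41 (-0.35), called in neither. The values of the 13 became -0.13 at rrn-1.2, -1.64 at F52E10.t5, -1.58 at C39D10.t2, -1.45 at M02F4.t2, -1.37 at col-94, -1.95 at col-19, -2.02 at col-124, -1.46 at col-122, -1.18 at the first rrn-3.1 peak, -0.997 at gpd-2, -1.89 at cbl-1, -1.97 at F57G8.t3 and -1.85 at Y24D9A.9. Members with an N2 peak numbered 33 when at least 50% of the shorter peak was shared and 36 on either strand.

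No paired analysis was possible because the columns carry no replicate numbers and the input is 1 library. Counts of calls without 1 CLIP library were not run, since 1 against 1 leaves no residual degrees of freedom. Members above the input numbered 156 in library A and 148 in library B. The planned checks that need the strand of a gene were not run. Of the 228 members, 18 had no input read and 30 had 1 to 3, which leaves their folds wide.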

Other observations

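Members at which the CLIP libraries stood far apart were shallow. At 13 members the scaled values of the libraries differed at least 4-fold, with library B the higher one at 7 of them. The peak of unc-31 with the snRNA gene ZK897.4 had 15 reads in library A and 0 in library B, against 5 in the input. Those of eri-6 with sosi-1 and of vps-54 with del-6 had 0 and 14 reads each, against 0 in the input, and that of psa-3 with pqn-36 had 0 and 13, against 0.

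One more peak of rrn-3.1 lies within the span of the deepest one but is listed on the plus strand. It had 18 and 9 CLIP reads, against 0 in the input, where the minus-strand peak from 15068016 to 15068348 had 1133545 and 1647258, against 54201. N2 had 14 reads on the plus strand there, also against 0. CD4.11 was the only host whose member peaks were listed on both strands. Its peak over CD4.18 had 616 and 1042 CLIP reads, against 530 in the input, on the minus strand, and that over CD4.19 had 52 and 75, against 31, on the plus strand.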
